A study of Homo sapiens with 8 samples.

Results

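The baseline transcriptomes of H1975 and HCC44, a pair of established human lung cancer cell lines, were compared in libraries treated with the solvent DMSO for 96 hours. These were the 4 libraries labelled DMSO out of 8 in the series, 2 replicates per line. They were chosen by that label alone. H1975 is known as an EGFR-mutant lung adenocarcinoma line, and HCC44 as a non-small cell lung cancer line with a mutated STK11, the gene of the kinase LKB1. The labels give lung as the tissue and WT as the genotype of both lines, and name no driver mutation. The other 4 libraries, 2 per line, received ACBI1, a degrader of the SWI/SNF subunits SMARCA2, SMARCA4 and PBRM1, for the same time, at a concentration labelled 1 mM, a unit that is uncertain. They entered the shared estimate of spread and the last comparison below. All 4 groups were cultured in the same medium with serum, per the labels. Each line stands for a single tumour, so its driver mutations, its donor and its culture history cannot be told apart as sources of a difference. Nothing in the labels says that the replicates were separate cultures, so the p-values measure the spread between these libraries, which may be technical.

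The values are reads counted per gene. Gene counts totalled 65066880 and 68399084 in the H1975 DMSO libraries and 68412984 and 70455517 in the HCC44 DMSO libraries. Levels are given below as CPM, counts scaled to library size, which do not correct for gene length and are compared only within a gene. A log2 difference is HCC44 minus H1975, so a positive value means higher in HCC44. A gene was called when edgeR's quasi-likelihood test gave a Benjamini-Hochberg adjusted p under 0.05 over all 21307 genes tested. Log2 CPM correlated at 0.991 to 0.992 between replicates and at 0.821 to 0.827 between the lines. Immune cells left little trace in either line. CD3D, CD3E and MS4A1 had no counts in any of the 4 libraries, and the leukocyte gene PTPRC did not exceed 0.0444 CPM. Of 3 B cell markers, 2 were tested, and both were at least 2-fold higher in H1975. Their median level was 0.685 CPM in H1975 and 0.0474 CPM in HCC44. The summed level of 13 immune markers was 18.3 to 20.7 CPM in H1975 and 4.87 to 4.88 CPM in HCC44. Without CSF1R, a macrophage receptor gene with 15.9 and 14.5 CPM in H1975, the sums were 3.81 to 4.8 and 4.42 to 4.43 CPM. The summed level of 12 endothelial and fibroblast markers was 50.4 to 73.0 CPM in H1975 and 78.2 to 97.3 CPM in HCC44, and DCN had no counts in any of the 4. Of the 9 tested, 6 were higher in HCC44 and 2 in H1975. The median level of these 9 was 0.408 CPM in H1975 and 0.868 CPM in HCC44.

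The lines differed at most genes. The test called 14477 genes, 67.9% of those tested, of which 6726 (31.6%) were higher in HCC44 and 7751 (36.4%) higher in H1975. A difference of at least 2-fold was called for 9093 genes (42.7%), 3685 (17.3%) higher in HCC44 and 5408 (25.4%) higher in H1975. More than 16-fold differences were called for 749 genes in favour of HCC44 and 1611 in favour of H1975. The median log2 difference over all genes was -0.08. At 84.9% of genes both libraries of one line lay above both of the other. For 6995 genes, 32.8%, the 95% interval of the difference lay within 2-fold in either direction. These shares are the background against which each gene group below is read. When libraries were scaled by their totals alone, the median of all genes shifted by -0.12 on the log2 scale and 41.5% of called genes were higher in HCC44, against 46.5%.

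**Figure D1:**
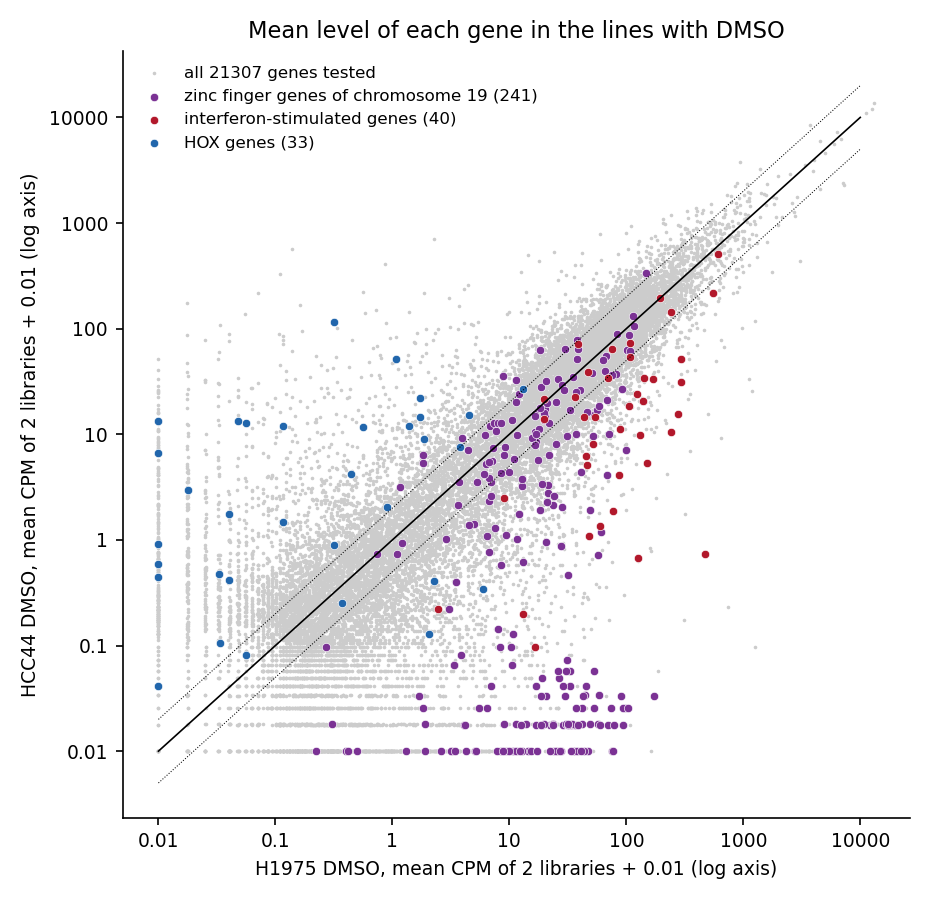
Mean level of each gene in H1975 DMSO (horizontal axis) and HCC44 DMSO (vertical axis), as CPM over 2 libraries plus 0.01 on log axes. The solid line marks equal levels and the dotted lines a 2-fold difference. Most of the 40 interferon-stimulated genes and many of the 241 zinc finger genes of chromosome 19 lie below the line, and most of the 33 HOX genes lie above it.

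Epithelial cells are held together by E-cadherin and claudins and keep their identity through regulators such as GRHL2 and ESRP1, while ZEB factors repress that program and mark the mesenchymal state. Of 36 epithelial genes tested, 27 were higher in H1975 and 6 higher in HCC44, with a median log2 difference of -2.22. CDH1, which encodes E-cadherin, stood at 250 and 198 CPM in the H1975 libraries and at 4.1 and 4.37 CPM in the HCC44 libraries. Both H1975 values lay far above both HCC44 values, a 52.8-fold difference (log2 -5.72 ± 0.41 SE, adjusted p = 1.07e-05). EPCAM, an epithelial adhesion molecule, had 184 and 158 CPM in H1975 and 10.8 and 10.4 CPM in HCC44. ESRP1, a splicing regulator of epithelial isoforms, had 136 and 113 CPM in H1975 and 0.779 and 0.47 CPM in HCC44, a 199-fold difference. GRHL2, a transcription factor of epithelial junctions, had 49.9 and 42.3 CPM against 0.382 and 0.172 CPM. CDH3, AP1M2 and KRT19 were also higher in H1975, by 181, 167 and 8.19-fold. The keratin genes KRT7 and KRT8 were 6.93 and 3.78-fold higher in H1975, and both remained well above background in HCC44, where their means were 441 ± 25.6 and 217 ± 16.2 CPM (SD, n = 2). HCC44 was therefore not without epithelial transcripts. The 6 exceptions included CLDN1, a claudin, at 328 and 374 CPM in HCC44 and 29.7 and 25.1 CPM in H1975, and EHF, an epithelial ETS factor, at 73.6 and 70.5 CPM against 2.83 and 1.05 CPM. KRT17 and KRT81 were 11.4 and 12.6-fold higher in HCC44. Keratin genes resemble each other, so reads may be split between them.

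Mesenchymal genes did not form the mirror image. Of 30 tested, 16 were higher in H1975 and 8 higher in HCC44, with a median log2 difference of -0.92. ZEB2, a repressor of E-cadherin, had 47.3 and 47.9 CPM in HCC44 and 1.01 and 0.947 CPM in H1975, a 48.6-fold difference (adjusted p = 2.37e-10). Its relative ZEB1 had 36.0 and 38.6 CPM in HCC44 and 14 and 18.8 CPM in H1975, a difference of 2.28-fold. FBN1, which encodes the microfibril protein fibrillin, was 87.2-fold higher in HCC44. The intermediate filament gene VIM went the other way, with 1220 and 1420 CPM in H1975 and 417 and 527 CPM in HCC44. FN1, the fibronectin gene, had 987 and 1390 CPM in H1975 against 30.0 and 21.6 CPM in HCC44, a 46.1-fold difference. SPARC was 10.8-fold and MYL9 12.1-fold higher in H1975. CDH2, which encodes N-cadherin, was close to absent in both lines, at 0.192 to 0.264 CPM in H1975 and 0.159 to 0.188 CPM in HCC44.

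**Figure D2:**
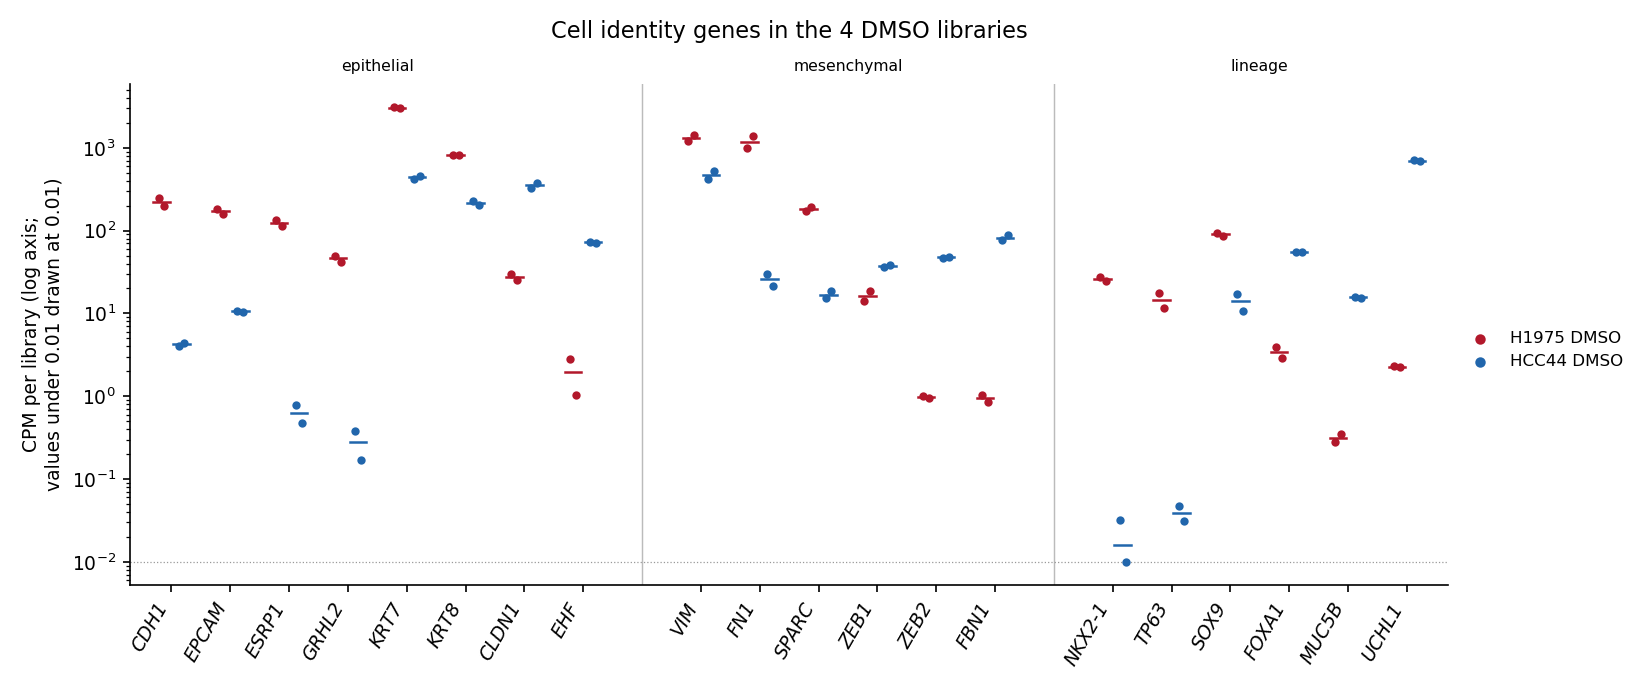
Level of epithelial, mesenchymal and lineage genes in each of the 4 DMSO libraries, as CPM on a log axis. Points are libraries and short bars are means of 2. The lines do not overlap for any gene drawn. CDH1 and GRHL2 sit high in H1975, while ZEB2, FBN1 and UCHL1 sit high in HCC44.

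Lung lineage factors separated the lines as well. NKX2-1, the master factor of lung epithelium and a marker of adenocarcinoma, had 27.5 and 24.3 CPM in H1975. HCC44 held 2 reads in total over both libraries against 3412 in H1975, a count ratio of 1640 with a 95% interval of 453 to 13500 that covers counting error only. TP63, a factor of basal and squamous cells, had 17.6 and 11.7 CPM in H1975 and 5 reads in all in HCC44. SOX9 had 94.3 and 86.6 CPM in H1975 and 17.2 and 10.7 CPM in HCC44. FOXA2 was 4.11-fold higher in H1975, while its relative FOXA1 was 16.3-fold higher in HCC44, at 55.8 and 55.1 CPM against 3.88 and 2.91 CPM. HNF4G, a factor of gut and kidney epithelium, and the airway mucin genes MUC5AC and MUC5B also stood higher in HCC44. MUC5B had 15.8 and 15.4 CPM there and 0.28 and 0.355 CPM in H1975. Over the 21 lineage genes tested of 37, 9 were higher in each line, and the other 16 were too low to test. Among 10 neuroendocrine genes tested, UCHL1, a ubiquitin hydrolase abundant in neurons, was exceptional. It had 704 and 696 CPM in HCC44 and 2.31 and 2.23 CPM in H1975, a 307-fold difference.

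Cells detect DNA in the cytosol through CGAS, which signals through STING1 and the kinase TBK1 to the factor IRF3, and detect viral RNA through RIGI and IFIH1. Both routes lead to interferons, which act through factors such as STAT2 and IRF9 on genes that carry the interferon-stimulated response element, a short promoter motif. The steps of this route differed in opposite directions. Of 18 sensing genes tested, 14 were higher in H1975 and 3 higher in HCC44, with a median log2 difference of -0.95. CGAS itself was among the 3, with 69.6 and 74.8 CPM in HCC44 and 29 and 29.2 CPM in H1975. The difference was 2.48-fold (log2 1.31 ± 0.09 SE, adjusted p = 3.41e-07). The others were TBK1, at 59.5 and 63.9 CPM in HCC44 against 30.6 and 29.6 CPM, and IRF3, at 130 and 131 CPM against 100 and 90.7 CPM. STING1, the adaptor between them, ran in the opposite direction, with 43.5 and 39.4 CPM in H1975 and 8.2 and 8.34 CPM in HCC44. That was a 5.01-fold difference (log2 -2.33 ± 0.15 SE, adjusted p = 1.53e-07). All 5 RNA sensors tested were higher in H1975. IFIH1 had 79.5 and 76.4 CPM there and 20.3 and 19.4 CPM in HCC44, and RIGI had 3.85 and 2.31 CPM against 0.27 and 0.251 CPM. MAVS, their adaptor, was 1.58-fold and AIM2, an inflammasome DNA sensor, 6.99-fold higher in H1975. IRF7, an interferon-inducible factor, was 3.13-fold higher in H1975.

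Interferon-stimulated genes were low in HCC44 as a group. Of 40 tested, 34 were higher in H1975, 29 of them at least 2-fold, and 1 was higher in HCC44, with a median log2 difference of -2.51. IFIT1, which binds viral RNA caps, had 123 and 132 CPM in H1975 and 0.668 and 0.658 CPM in HCC44. The lines stood 191-fold apart (log2 -7.58 ± 0.28 SE, adjusted p = 2.1e-08). IFI27 had 490 and 455 CPM in H1975 and 0.922 and 0.533 CPM in HCC44, a 649-fold difference. BST2, the virus-tethering protein tetherin, had 223 and 259 CPM in H1975 and 11.4 and 9.59 CPM in HCC44. RSAD2, an antiviral radical enzyme, and its neighbour CMPK2 were 185 and 69.1-fold higher in H1975, and their exons overlap, so part of their reads may be shared. ISG15, MX1, OAS1 and XAF1 were 5.69, 4.18, 9.01 and 28.1-fold higher in H1975. The exception was GBP1, a guanylate-binding protein, with 65.3 and 76.9 CPM in HCC44 and 35.9 and 41.2 CPM in H1975. Of 5 factors of the interferon pathway tested, 3 were higher in H1975, 2 of them at least 2-fold, and none was called higher in HCC44. IRF9 had 12.3 and 6.23 CPM in H1975 and 2.93 CPM in both HCC44 libraries, a 3.16-fold difference (log2 -1.66). Without H1975 DMSO replicate 1 its log2 difference was -1.10. STAT2 was 1.91-fold higher in H1975, IRF1 had 39.1 and 44.5 CPM in H1975 and 47.5 and 47.2 CPM in HCC44 and was not called (adjusted p = 0.143), and IFNGR1 was 2.5-fold higher in HCC44. The interferon gene IFNB1 was low in both lines, with 11 reads in H1975 and 69 in HCC44, and was called higher in HCC44 (log2 2.68, adjusted p = 0.00126), opposite in direction to most interferon-stimulated genes.

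The promoters of this group carry the response element more often than others, and a pair of them is shown because these genes were high in H1975 and nearly silent or low in HCC44. The element was searched as GAAANNGAAA on both strands, with overlapping matches counted. The search covered the 250 bases before each transcript start, taken from RefSeq windows of GRCh38.p14. The element was found in 29 of 45 windows of the interferon-stimulated genes (64.4%) and in 468 of 18662 windows of all tested genes (2.51%). The sequences below run 5′ to 3′ along each gene's own strand, stop before the gene body, and have the matches in capitals. They lie at chr10:89392492-89392544 on the plus strand for IFIT1 and at chr19:17405730-17405775 on the minus strand for BST2.
IFIT1: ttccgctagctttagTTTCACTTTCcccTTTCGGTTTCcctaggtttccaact
BST2: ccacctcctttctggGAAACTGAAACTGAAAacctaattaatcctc
IFIT1 has 2 matches, both on the opposite strand, and BST2 has 2 that overlap. Within the group, the 26 genes with a match had a median log2 difference of -2.34 and the 8 without one -2.13, and this difference was not tested. A match is a description of letters and not of a bound site.

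Antigen presentation did not follow the interferon-stimulated genes. Of 26 genes tested, 15 were higher in HCC44 and 3 higher in H1975, with a median log2 difference of 0.42. HLA-C, a class I heavy chain, had 309 and 303 CPM in HCC44 and 176 and 206 CPM in H1975, a 1.6-fold difference (adjusted p = 0.000328). HLA-B was 1.42-fold higher in HCC44, and reads of these similar, polymorphic genes may be split or lost. B2M, the shared light chain, had 621 and 620 CPM in H1975 and 515 and 641 CPM in HCC44. It was not called, and the 95% interval of its log2 difference ran from -0.34 to 0.14. NLRC5, the class I transactivator, was higher in H1975, with 62.2 and 51.1 CPM against 20.9 and 21.5 CPM. The class II genes HLA-DRA, HLA-DRB1 and CD74 were higher in HCC44. HLA-DRA had 24.7 and 20 CPM there and 2.28 and 1.52 CPM in H1975, while CD74 had 269 and 278 CPM against 84.3 and 114 CPM.

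Ligands that immune cells read on tumour cells were mixed. Of 17 tested, 6 were higher in HCC44 and 5 in H1975. CD274, which encodes PD-L1, had 61.8 and 54.0 CPM in H1975 and 61.8 and 53.8 CPM in HCC44. The lines overlapped, and the interval of the log2 difference ran from -0.43 to 0.43. MICB, a ligand of the NKG2D receptor of natural killer cells, was 4.19-fold higher in HCC44, at 50.4 and 51.5 CPM against 12.2 CPM in both H1975 libraries. NECTIN2 was 2.93-fold higher in HCC44. NT5E, the ectoenzyme CD73 that makes adenosine, was 3.58-fold higher in H1975, at 343 and 358 CPM against 102 and 93.9 CPM, and CD276 was 1.89-fold higher there.

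**Figure D3:**
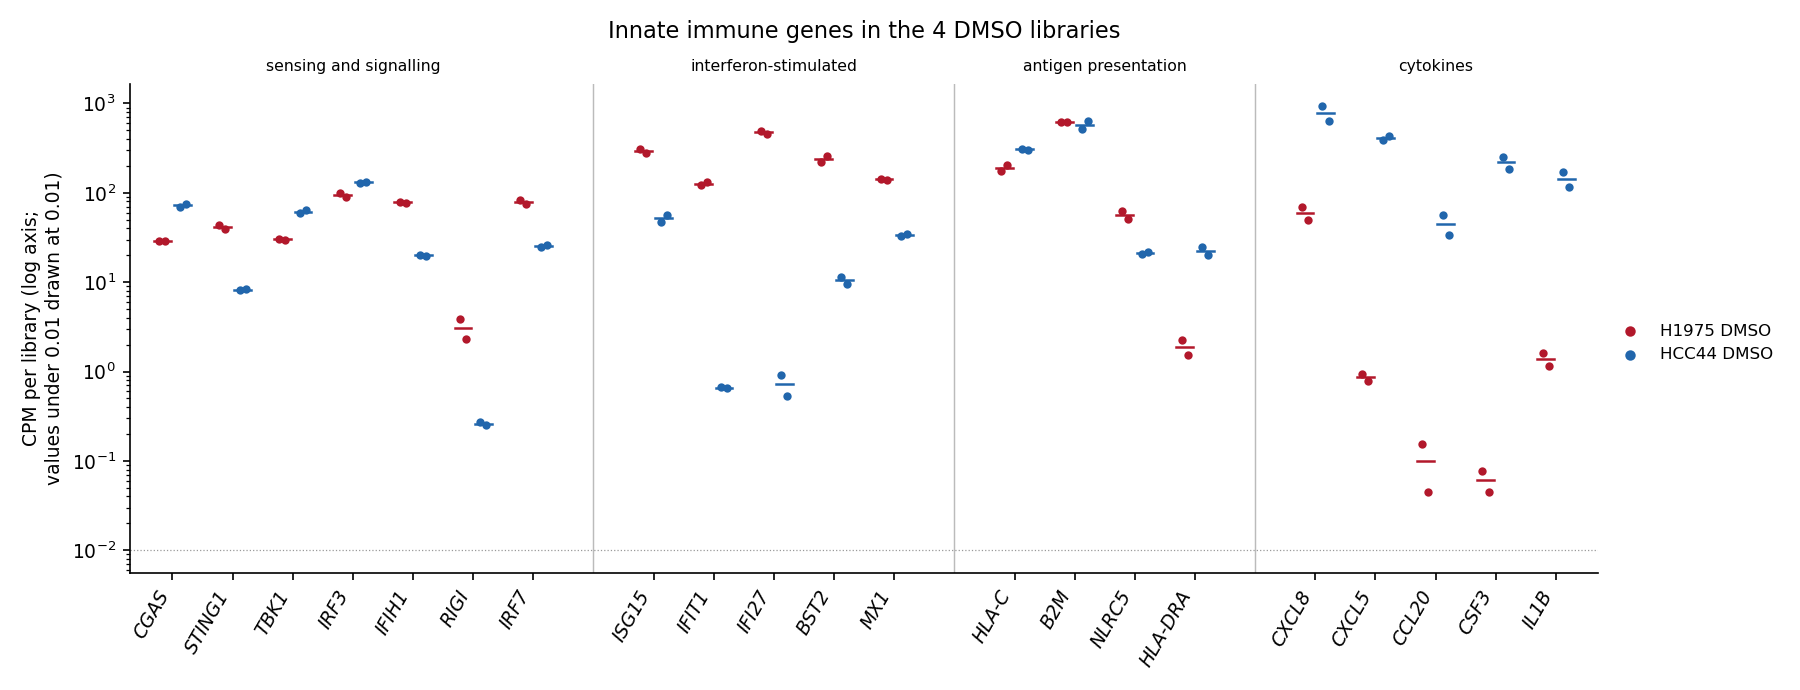
Level of genes of innate sensing, interferon response, antigen presentation and cytokines in each of the 4 DMSO libraries, as CPM on a log axis. Points are libraries and short bars are means of 2. Points for CGAS and TBK1 are higher in HCC44 and those for STING1 and all 5 interferon-stimulated genes drawn are higher in H1975, and the lines overlap for B2M.

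Inflammatory cytokines and chemokines were the group most tilted to HCC44 among the immune lists. Of 24 tested, 17 were higher in HCC44, 15 of them at least 2-fold, and 4 higher in H1975, with a median log2 difference of 3.10. All 6 neutrophil chemokines tested were higher in HCC44. CXCL8, the gene of interleukin 8, had 929 and 643 CPM in HCC44 and 69.9 and 49.6 CPM in H1975, a 13.2-fold difference (adjusted p = 9.46e-05). CXCL5 had 385 and 433 CPM against 0.932 and 0.784 CPM, a 476-fold difference, and CXCL6 was 284-fold higher. CCL20, which draws dendritic and Th17 cells, had 56.5 and 33.7 CPM in HCC44 and 0.155 and 0.0444 CPM in H1975. CSF3, the granulocyte growth factor, had 254 and 185 CPM in HCC44, against 8 reads in all in H1975, a count ratio of 3610 (95% interval 1830 to 8370). IL1B had 171 and 116 CPM in HCC44 and 1.6 and 1.14 CPM in H1975. IL18, of the same cytokine family, ran the other way and was 2.43-fold higher in H1975. CX3CL1 was 3.17-fold higher in H1975. CCL5, a T cell chemokine, was low in both lines, at 1.76 and 1.52 CPM in H1975 and 1.03 and 1.1 CPM in HCC44, and was not called (adjusted p = 0.11).

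Growth factor signalling through ERBB receptors and RAS ends in MAP kinase activity, which induces its own inhibitors, the DUSP phosphatases and Sprouty proteins. The receptor gene EGFR, mutated in H1975, did not differ by a call. It had 357 and 385 CPM in H1975 and 301 and 340 CPM in HCC44, with a 95% interval of the log2 difference from -0.62 to 0.20. ERBB2 and ERBB3 were 2.95 and 5.1-fold higher in H1975. The ligands AREG and EREG were not called either, at 47.3 ± 6.63 and 53.6 ± 1.22 CPM for AREG and 50.3 ± 3.06 and 55.9 ± 2.13 CPM for EREG (H1975 and HCC44, SD, n = 2). TGFA was 1.99-fold higher in HCC44. Among other receptors, AXL had 377 and 411 CPM in HCC44 and 93.7 and 148 CPM in H1975, and EPHA2 had 606 and 604 CPM against 153 and 145 CPM. In the ERBB list 7 of 18 tested genes were higher in HCC44 and 6 higher in H1975.

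Of 16 MAP kinase feedback targets, 12 were higher in HCC44, none was called higher in H1975, and the median log2 difference was 0.80. SPRY4 had 129 and 122 CPM in HCC44 and 34.9 and 27.5 CPM in H1975, a 4.02-fold difference (adjusted p = 7.7e-08). SPRY2 was 3.7-fold and ETV5, an ETS factor, 2.15-fold higher. DUSP6, the phosphatase of ERK, had 188 and 86.2 CPM in HCC44, a wide spread, and 29.2 and 20.3 CPM in H1975. The RAS inhibitor NF1 was 2.19-fold higher in HCC44 and RASA1 2.37-fold higher in H1975. AKT2, a kinase of the separate PI3K pathway, was 2.74-fold higher in HCC44, at 166 and 173 CPM against 60.8 and 63.1 CPM.

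STK11 encodes LKB1, which activates AMP-activated kinase and the SIK kinases, and SIK activity restrains the CREB coactivators CRTC. The STK11 transcript was present in both lines, at 143 and 144 CPM in H1975 and 66.5 and 69.4 CPM in HCC44. H1975 was 2.11-fold higher (log2 -1.08 ± 0.11 SE, adjusted p = 4.94e-06). CAB39, the scaffold of the LKB1 complex, was 2.1-fold higher in H1975. PRKAA2, a catalytic subunit of AMP-activated kinase, had 67.0 and 75.6 CPM in HCC44 and 0.0932 and 0.118 CPM in H1975, a 661-fold difference. Of 15 CREB and CRTC targets tested, 10 were higher in HCC44 and 2 higher in H1975, with a median log2 difference of 1.33. PDE10A, a cyclic nucleotide phosphodiesterase, had 96.8 and 106 CPM in HCC44 and 0.419 and 0.237 CPM in H1975. PDE4B and PDE4D were 37.8 and 4.15-fold higher in HCC44, and NR4A1, an immediate early factor, 2.51-fold. The 2 higher in H1975 were SIK1, by 6.28-fold, and CPS1. CPS1, a mitochondrial urea cycle enzyme, had 14.7 and 20.2 CPM in H1975 and 0.334 and 0.188 CPM in HCC44.

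NRF2, encoded by NFE2L2, drives antioxidant genes and is held back by KEAP1. NFE2L2 had 140 and 154 CPM in H1975 and 158 and 174 CPM in HCC44 and was not called (adjusted p = 0.139). Of 38 targets tested, 20 were higher in HCC44 and 8 higher in H1975, with a median log2 difference of 0.44, and only 8 of the 20 reached 2-fold. The aldo-keto reductases AKR1C1, AKR1C2 and AKR1C3 were 10.1, 71.8 and 19.3-fold higher in HCC44, and they are near-identical copies, so the split of reads among them is uncertain. TXNRD1, thioredoxin reductase, had 717 and 867 CPM in HCC44 and 281 and 310 CPM in H1975. The heme oxygenase gene HMOX1 went the other way, with 106 and 93.1 CPM in H1975 and 22 and 17.6 CPM in HCC44, and NQO1 was 1.4-fold higher in H1975.

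Proliferation genes were higher in H1975. Of 36 tested, 28 were higher in H1975 and 4 higher in HCC44, with a median log2 difference of -1.28. The difference lay mainly in mitosis, where 19 of 20 genes were higher in H1975 and 17 of these at least 2-fold. Of 16 replication genes, 9 were higher in H1975 and 4 in HCC44. MKI67, the Ki-67 antigen, had 192 and 172 CPM in H1975 and 19 and 32.1 CPM in HCC44, a 7.13-fold difference (adjusted p = 0.0002). PLK1, a mitotic kinase, had 79.2 and 64.9 CPM in H1975 and 6.5 and 9.51 CPM in HCC44. KIF20A, CENPA and UBE2C were 11.5, 8.17 and 8.62-fold higher in H1975. RRM1, a subunit of ribonucleotide reductase, was 1.4-fold higher in HCC44. The brakes on the cycle were mixed. Of 7 genes of cyclin-dependent kinase inhibitors, 3 were higher in HCC44, 1 was higher in H1975 and 3 were not called. Their median log2 difference was -0.28. Of 3 genes of the RB1 family, 2 were higher in HCC44 and 1 in H1975. CDKN2A had 267 and 319 CPM in HCC44 and 51.4 and 53.4 CPM in H1975. RB1 was 2.85-fold and CDKN2B 1.92-fold higher in HCC44. MTAP, the neighbour of CDKN2A that is often deleted with it, was present in both lines, at 93.2 and 104 CPM in HCC44 and 44.1 and 41.1 CPM in H1975. The cultures' growth and density at harvest were not given per library, and their part in these values was not tested.

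Metabolic and stress lists gave smaller medians. Of 29 hypoxia and glycolysis genes, 14 were higher in H1975 and 7 in HCC44. SLC2A3, a glucose transporter, had 64.6 and 69.0 CPM in H1975 and 0.35 and 0.345 CPM in HCC44, a 191-fold difference. The glycolytic enzyme genes PGAM1 and LDHA were 3.91 and 2.77-fold higher in H1975, and both have processed copies that may take reads. Of 23 genes of the integrated stress response, 16 were higher in HCC44 and 2 in H1975, with a median log2 difference of 0.67. The endoplasmic reticulum chaperone HSPA5 had 3180 and 3290 CPM in HCC44 and 1260 and 1550 CPM in H1975. HSP90B1 was 3.54-fold and the asparagine synthetase ASNS 3.1-fold higher in HCC44.

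HOX genes encode the transcription factors that set position along the body axis and lie in 4 clusters. Of the 27 lists, theirs had the largest median difference in favour of HCC44. Of 33 tested, 26 were higher in HCC44, all 26 by at least 2-fold, and 3 were higher in H1975. Levels were low, with a median over the 33 of 0.305 CPM in H1975 and 2.95 CPM in HCC44. The median log2 difference was 3.68, and it was also 3.68 when the 6 genes without counts in one line were set to their lower bound. By cluster, 8 of 11 HOXA, 7 of 8 HOXB, 6 of 9 HOXC and 5 of 5 HOXD genes tested were higher in HCC44. HOXB9 had 121 and 111 CPM in HCC44 and 0.233 and 0.385 CPM in H1975, a 372-fold difference (adjusted p = 7.47e-08). HOXC11 had 13.2 and 13.5 CPM in HCC44 and no read in H1975, at least 589-fold higher against a floor of 3 counts over the group. HOXB6 likewise had 6.95 and 6.27 CPM in HCC44 and no read in H1975, at least 291-fold higher, but its exons overlap those of HOXB3. HOXC4 was 17.8-fold higher in H1975, with 5.93 and 5.98 CPM against 0.493 and 0.172 CPM, and its exons overlap those of HOXC5 and HOXC6. The cluster medians were 1.52 for HOXA, 8.34 for HOXB, 2.29 for HOXC and 3.76 for HOXD. With genes without counts in one line at their lower bound, those of HOXB and HOXC were 7.49 and 1.75, and the others stayed as given.

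**Figure D4:**
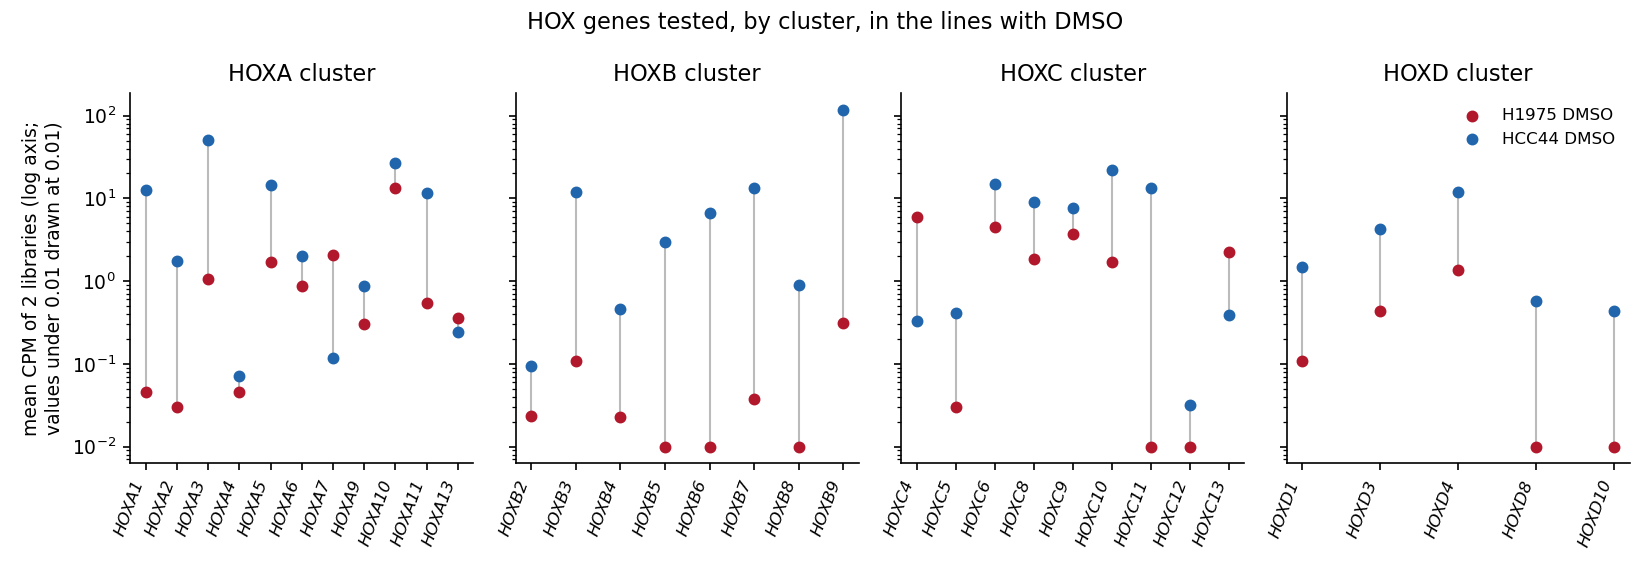
Mean level of each HOX gene tested in H1975 DMSO and HCC44 DMSO, by cluster in numerical order, as CPM over 2 libraries on a log axis. A line joins the means of a gene. All 8 HOXB and all 5 HOXD genes drawn have the HCC44 point above the H1975 point, while HOXC4 is reversed.

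Matrix and adhesion genes exchanged members between the lines. Of 31 matrix and protease genes, 16 were higher in HCC44 and 8 higher in H1975. COL4A1 and COL4A2, the paired chains of basement membrane collagen that share a promoter region, had 208 and 237 CPM and 550 and 575 CPM in HCC44. In H1975 they had 0.683 and 0.414 CPM and 0.155 and 0.104 CPM. The fitted difference of COL4A2 was 4300-fold in favour of HCC44 (log2 12.07, adjusted p = 3.37e-11). It rests on few reads in H1975, so its size is uncertain. SERPINE2, a protease inhibitor, had 129 and 149 CPM in HCC44 and 6 reads in all in H1975. The gelatinase MMP2 was 78.1-fold higher in HCC44, and the gelatinase MMP9 was 58.8-fold higher in H1975. COL17A1, a collagen of hemidesmosomes, had 219 and 152 CPM in H1975 and 6 reads in all in HCC44, a count ratio of 3910 (95% interval 1800 to 10700). Of 18 integrins, 11 were higher in H1975 and 4 in HCC44. ITGB4, the hemidesmosome partner of COL17A1, had 241 and 212 CPM in H1975 and 28.4 and 32.3 CPM in HCC44. ITGB6, an epithelial subunit that activates TGF-beta, had 18.3 and 12 CPM in H1975 and 7 reads in all in HCC44. ITGA1 was 14.8-fold and ITGB2 3.46-fold higher in HCC44. Factors of the YAP and TEAD pathway and their targets were divided, 11 of 24 higher in HCC44 and 7 higher in H1975. Of the 18 targets alone, 8 were higher in HCC44 and 5 higher in H1975.

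The SWI/SNF complexes, which the study perturbs, use SMARCA4 or SMARCA2 as their motor. SMARCA4 had 354 and 359 CPM in H1975 and 317 and 300 CPM in HCC44. The groups did not overlap, but the 1.16-fold difference was not called (log2 -0.21 ± 0.09 SE, 95% interval -0.41 to -0.01, adjusted p = 0.0613). Scaling by library totals gave a log2 difference of -0.33, which was called (adjusted p = 0.00694). SMARCA2 had 60.5 and 70.7 CPM in H1975 and 58.9 and 58.7 CPM in HCC44, with an interval from -0.43 to 0.11. Both motors were thus transcribed in both lines, within 2-fold of each other across the lines. Of 27 subunit genes tested, 13 were higher in HCC44, 5 higher in H1975 and 9 not called, where 67.9% of all genes were called. Of the 27, only 4 were called at least 2-fold higher in HCC44 and 2 in H1975. Among all genes tested the shares were 17.3% and 25.4%. Some accessory subunits differed more than the motors. BRD9, the bromodomain subunit of the non-canonical complex, had 192 and 176 CPM in HCC44 and 43.0 and 33.2 CPM in H1975, a 4.82-fold difference (adjusted p = 8.46e-08), and its exons overlap those of TRIP13. SS18L1 and PHF10, alternative subunits, were 3.12 and 2.49-fold higher in HCC44. BCL7C and SMARCD3 were 3.4 and 2.77-fold higher in H1975. ARID1A was 1.54-fold higher in HCC44, and its alternative ARID1B 1.59-fold higher in H1975.

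A further contrast was the set of genes transcribed in one line and undetected in the other. A gene counted as on where its mean reached 5 CPM and as off at no more than 3 reads over both libraries of a line. Y-linked genes, XIST and TSIX were not counted. By this rule 197 genes, 0.925% of those tested, were on in H1975 and off in HCC44, and 73 genes, 0.343%, were on in HCC44 and off in H1975. The ACBI1 libraries, which the rule did not use, gave at most 3 reads for 165 of the 197 in HCC44 and for 57 of the 73 in H1975. Chromosome 19 held 104 of the 197, or 6.78% of its 1534 tested genes, and none of the 73. On the other chromosomes the share did not exceed 1.44%, the value of chromosome 5.

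Zinc finger genes made up 78 of the 104, and this group was defined after the values were seen, so it has no test. These genes encode DNA-binding proteins, most with a KRAB domain that recruits the corepressor TRIM28, and they stand in dense clusters on chromosome 19. Of 241 tested there, 194 were higher in H1975, 168 of them at least 2-fold, 26 were higher in HCC44, and 78 (32.4%) were off in HCC44. The median log2 difference was -4.46, or -4.07 with the 44 genes without counts in one line set to their lower bound. Of 259 zinc finger genes on other chromosomes, 111 were higher in H1975 and 72 higher in HCC44, and 8 (3.09%) were off in HCC44. Of 907 other protein-coding genes of chromosome 19, 9 (0.992%) were off in HCC44. Members of this family resemble each other, so counts of single members are uncertain.

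Some of the silent genes lay side by side in runs. A run was at least 4 tested genes in a row, by start position, whose mean reached 5 CPM in one line and stayed under 0.1 CPM in the other. There were 7 runs of 4 to 12 genes, all on chromosome 19 and all on in H1975, out of every chromosome searched in both directions. They held 42 genes, and 35 of these were among the 197 off in HCC44, so most silent genes lay outside runs. The longest, at chr19:52453576-52923481 in hg38 by GENCODE 29, held 12 genes from ZNF578 to ZNF888 and included ZNF808, ZNF701, ZNF83, ZNF611, ZNF600, ZNF28, ZNF468 and ZNF320. ZNF578 had 39.3 and 37.1 CPM in H1975 and no read in HCC44. Another, at chr19:57487711-57612722, held 7 genes from ZNF419 to ZNF530, among them ZNF550 and ZIK1. ZIK1 had 46.1 and 47.9 CPM in H1975 and ZNF550 had 47.5 and 40.1 CPM, and neither had a read in HCC44. ZNF430, in another run, had 35.6 and 35.8 CPM in H1975 and no read in HCC44.

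The bases upstream of 3 genes with no read in HCC44 are shown with their CpG pairs, the sites of DNA methylation, as examples from the silent group chosen after its values were seen. Methylation was not measured here. The stretches come from the RefSeq windows of GRCh38.p14 and end before the gene body, with CpG pairs in capitals. They lie at chr19:52369673-52369916 for ZNF880, chr19:53254899-53255073 on the minus strand for ZNF677 and chr14:103928206-103928455 for TDRD9.
ZNF880: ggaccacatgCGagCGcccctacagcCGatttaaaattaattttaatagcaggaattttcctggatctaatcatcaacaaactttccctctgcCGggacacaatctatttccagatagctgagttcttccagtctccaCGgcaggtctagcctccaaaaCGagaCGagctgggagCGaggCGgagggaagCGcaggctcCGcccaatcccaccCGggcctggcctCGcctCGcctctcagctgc
ZNF677: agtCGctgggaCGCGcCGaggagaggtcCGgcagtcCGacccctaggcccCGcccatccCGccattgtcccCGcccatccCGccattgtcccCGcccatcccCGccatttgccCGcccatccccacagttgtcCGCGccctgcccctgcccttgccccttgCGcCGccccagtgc
TDRD9: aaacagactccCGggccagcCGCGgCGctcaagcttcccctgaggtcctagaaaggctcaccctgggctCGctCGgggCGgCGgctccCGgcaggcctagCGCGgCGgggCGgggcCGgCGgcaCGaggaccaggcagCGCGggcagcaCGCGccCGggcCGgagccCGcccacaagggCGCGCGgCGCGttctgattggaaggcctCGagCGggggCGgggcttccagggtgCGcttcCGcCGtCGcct
The printed stretches hold 14, 17 and 35 CpG pairs in 244, 175 and 250 bases, so the counts of the shorter stretches are not over the length used next. Over the 250 bases before the start, the median was 17 pairs for the silent chromosome 19 zinc finger genes. It was 18 for those with at least 5 CPM in HCC44, against 19 for all tested genes. The quartiles were 11 and 22 pairs in the silent and 12.25 and 22.75 in the transcribed zinc finger genes. TDRD9 belongs to the other 119 silent genes, which include zinc finger genes of other chromosomes. For the 60 of these with a promoter window the median was 11 pairs, so the 35 of TDRD9 are not typical of that group.

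**Figure D5:**
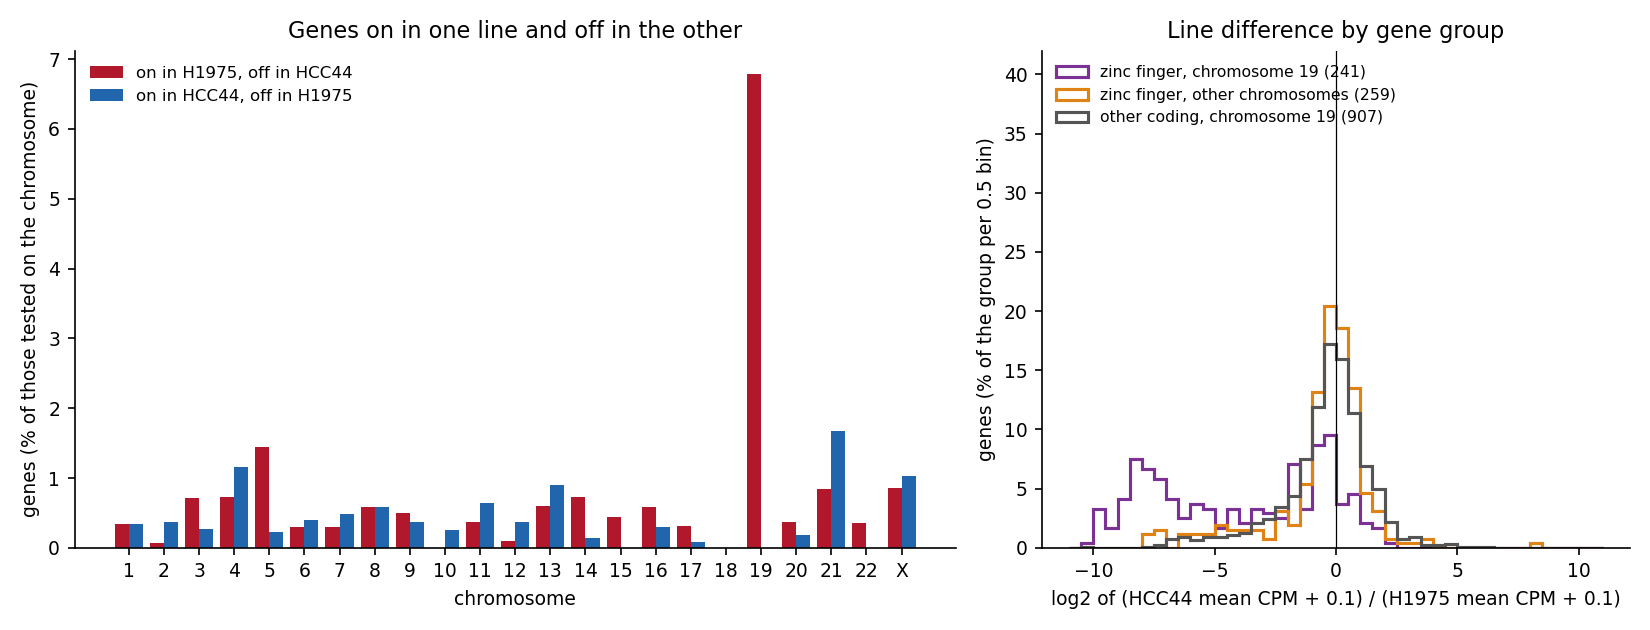
The left panel gives, per chromosome, the percent of tested genes that were on in one line and off in the other, and the bar for H1975 on chromosome 19 reaches 6.78%. The right panel gives the distribution of the log2 ratio of mean CPM, with 0.1 added to each mean, in 3 gene groups, and the chromosome 19 zinc finger genes have a second peak at low values that the other groups lack.

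Single genes were ranked without Y-linked genes, XIST and TSIX. Among those at 20 CPM or more in the higher line, TDRD9 had the largest fitted difference in favour of H1975. It is a helicase of the germline piRNA pathway and had 183 and 141 CPM in H1975 and no read in HCC44, at least 6820-fold higher against the floor. ZNF880 had 73.7 and 81.2 CPM and ZNF677 had 74.8 and 74.7 CPM in H1975, and neither had a read in HCC44, so they were at least 3270 and 3160-fold higher. Other genes of this kind were ARRDC4, an arrestin-like gene, the zinc finger genes ZNF626 and ZNF350, and CT45A1, a testis antigen with near-identical copies. PRAME, a further cancer-testis antigen, had 99.3 and 86.8 CPM in H1975 and 3 reads in all in HCC44. DLC1, a tumour suppressor, had 24.8 and 27.6 CPM in H1975 and a single read in HCC44.

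In favour of HCC44, GALNT14, a glycosyltransferase of mucin-type sugars, had 50.0 and 53.2 CPM and no read in H1975, at least 2270-fold higher. KCNK1, a potassium channel, and SLC1A3, a glutamate transporter, were at least 1790 and 1480-fold higher. PDPN, the glycoprotein podoplanin, and FGF5, a growth factor, had 22.2 and 27.7 CPM and 23.2 and 26.0 CPM in HCC44 and no read in H1975. STK26, a kinase, MUC6, a mucin, and TDRD1, a piRNA pathway gene, were also close to silent in H1975, with 1, 1 and 3 reads.

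Genes abundant in one line and measurable in the other gave folds that depend less on the floor. In HCC44, LAMB1, a laminin chain, had 483 and 584 CPM against 26.7 and 21.7 CPM in H1975, a 22.1-fold difference (adjusted p = 8.22e-08). TNFRSF9, the costimulatory receptor 4-1BB, had 330 and 362 CPM against 13.3 and 11.8 CPM, and GRAMD1B, a sterol transporter, was 24.3-fold higher. LCN2, an iron-binding protein of inflammation, had 596 and 397 CPM against 9.21 and 19.5 CPM. DUSP2, another MAP kinase phosphatase, was 14.3-fold higher in HCC44. In H1975, VGF, a secreted neuropeptide precursor, had 630 and 650 CPM against 10.1 and 8.35 CPM in HCC44, a 69.2-fold difference (adjusted p = 1.44e-10). VCAN, a matrix proteoglycan, was 50.3-fold and the giant scaffold gene AHNAK2 32.4-fold higher. TXNIP, an inhibitor of thioredoxin and of glucose uptake, had 946 and 1300 CPM against 33.8 and 32.4 CPM (log2 -5.09, adjusted p = 0.00641). Without H1975 DMSO replicate 2 its adjusted p was 0.0525.

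The last comparison asked how far the difference between the lines held when both received ACBI1. The test called 14277 genes between the lines under ACBI1 (67.0%). Of the genes called with DMSO, 11208 were called in the same direction, which is 77.4% of the DMSO calls and 78.5% of the ACBI1 calls. These libraries are separate from the DMSO libraries, but both comparisons share the estimate of spread. Of the 3685 genes at least 2-fold higher in HCC44 with DMSO, 84.2% kept their call and direction, and of the 5408 at least 2-fold higher in H1975, 83.5% did. The difference itself changed for 3967 genes (18.6%), of which 354 were called in opposite directions.

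By group, the HOX median was 3.68 under ACBI1, as with DMSO, and that of the chromosome 19 zinc finger genes was -4.23. The median of inflammatory cytokines was 2.87 and that of the epithelial genes -1.91. Interferon-stimulated genes moved more. Their median log2 difference was -0.91 under ACBI1 against -2.51 with DMSO, the difference changed for 32 of 40, and 26 were still called higher in H1975. OAS1 went from a log2 difference of -3.17 to 0.10, where it was not called (adjusted p = 0.706). The proliferation median moved from -1.28 to -0.01, with 4 of 36 genes called higher in H1975 and 12 called higher in HCC44 under ACBI1 and a changed difference for 22. The keratin gene KRT18 and VIM also lost their call, with log2 differences of -0.03 and 0.01 under ACBI1.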

How the data were processed

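RNA counts of 8 libraries were used, 2 for each of 4 groups, and the 4 DMSO libraries make the comparison. The authors deposited whole-number counts of reads per gene, 1 table per library, with 61228 gene names. TopHat2 2.1.1, HTSeq 0.11.0 and the build hg38 are named per the submitters' processing notes. The libraries were made with a NEBNext DNA library kit, per the labels' protocols. The strand setting and the annotation are not given in the sources used here, so antisense genes, overlapping genes and near-identical copies are uncertain. Of the 296 genes that the naming rule gave, 138 overlap an exon of another gene.

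Summary rows that name no gene, 14.3 to 15.8% of each DMSO table, were left out. Genes were kept by filterByExpr, libraries were scaled by TMM, and edgeR 4.0.16 in R 4.3.3 fitted a mean per group to all 8 libraries with robust dispersion, leaving 4 residual degrees of freedom. The two-sided quasi-likelihood F-test was adjusted by Benjamini-Hochberg over all genes. The common biological coefficient of variation was 0.123. The standard error is the log2 difference divided by the square root of F. It can fall below counting error where a line had few reads. CPM used the scaled library sizes. Where a line had no reads, the fold is against 3 counts over its 2 libraries, and where it had few, the ratio of CPM-scaled counts is given with an exact 95% interval, which covers counting error only. The counts of replicates differed more than sampling allows (chi-square divided by its degrees of freedom 48.4 in H1975 DMSO and 24 in HCC44 DMSO), so each library was counted as its own sample.

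The genes named were the 85 of a core list, the 12 largest differences per direction at 20 CPM or more in the higher line without overlap between lines, the 8 largest per direction with at least 100 CPM in the higher and 5 CPM in the lower line, the 4 largest per direction in each of 27 gene lists at 5 CPM or more in the higher line, and genes in runs. Y-linked genes, XIST and TSIX were left out of the ranked parts and the runs. This rule gave 296 genes, and not all of them are reported here. Members and lists were chosen with earlier results of these data known. Markers named in the check for other cell types, and genes given as overlap partners, lie outside this rule and were chosen after their values were seen. The test was also run on simulated counts with 20789 to 20807 genes tested. Over all draws 201, 201 and 198 genes were changed 1.5, 2 and 4-fold, and all others were equal between the lines. Of these, 44.3%, 82.6% and 97% were recovered, and 10.4% of calls were false, above the nominal level. In the data 67.9% of genes were called, so these shares need not hold for this comparison. Positions came from GENCODE 29, which matched 93.0% of gene names. Promoter windows matched 13175 of the tested genes. Alternatives were DESeq2 1.42.0, other scalings and filters, the 4 DMSO libraries alone, a replicate block, non-robust dispersion, a stricter threshold and each DMSO library left out. Figures were drawn with matplotlib 3.10.9.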

Additional observations from a re-analysis of the deposited data

Results flagged for a closer look

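For 3 genes named above, the difference between the lines was called in opposite directions with DMSO and with ACBI1, and the change of the difference was itself called by edgeR's quasi-likelihood test. ARID1B, a DNA-binding SWI/SNF subunit, had 83.8 and 103 CPM in H1975 and 59.8 and 57.7 CPM in HCC44 with DMSO, against 76.6 and 85.3 CPM in H1975 and 131 and 152 CPM in HCC44 with ACBI1, a change of 1.47 on the log2 scale (adjusted p = 0.000343). ITGB2, an integrin chain of leukocytes, was higher in HCC44 with DMSO but had 83.5 and 98.6 CPM in H1975 and 57.7 and 63.3 CPM in HCC44 with ACBI1, a change of -2.38 (adjusted p = 2.56e-05). NQO1, a quinone reductase and NRF2 target, was higher in H1975 with DMSO but had 143 and 172 CPM in H1975 and 316 and 367 CPM in HCC44 with ACBI1, a change of 1.60 (adjusted p = 0.000205).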

How the results depend on the processing

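The count of genes called was 12940 to 13397 with one DMSO library left out and 11975 to 15339 under the other settings, against 14477. The count at least 2-fold apart was 8643 to 8963 with one library left out and 6563 to 9903 otherwise, against 9093. The count called in the same direction under ACBI1 was 10248 to 10564 and 9124 to 11534, against 11208. All of these lie within 1.5 times the reported counts. Of 190 tested genes named in the text, 183 kept their sign and their side of the threshold under all 14 planned settings and the 1 added after seeing the data. SMARCA4 was called under upper-quartile scaling (log2 -0.28), library totals (-0.33) and a filter of 1 CPM in 2 libraries (-0.22). CD274, which was not called, had a log2 difference of 0.012 with RLE size factors and with DESeq2, 0.039 in the 4 DMSO libraries alone and 0.038 there with the replicate block, and -0.099 to 0.091 with one library left out. With one library left out, SMARCA2 ranged from -0.274 (without H1975 DMSO replicate 1) to 0.009 (without H1975 DMSO replicate 2) and B2M from -0.271 (without HCC44 DMSO replicate 2) to 0.052 (without HCC44 DMSO replicate 1), and neither was called. TXNIP lost its call without H1975 DMSO replicate 2, as given above, and LCN2 lost it in the 4 DMSO libraries alone with the replicate block (adjusted p = 0.06), where NFE2L2 gained one (adjusted p = 0.0318). The median of the cell cycle regulators went from 0.22 to 0.00 without a filter, without H1975 DMSO replicate 2 and without either HCC44 DMSO library. That of the neuroendocrine genes went from 0.33 to 0.00 without a filter. Medians cover only members tested, and these settings tested 22345 to 36413 genes, against 21307. In the main fit 1 of 19 cell cycle regulators and 6 of 16 neuroendocrine genes were not tested, so the members need not be the same. The causes were not tested.

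The replicate number was also fitted as a block. It gave 14818 genes called, 9127 at least 2-fold apart and 11490 called in the same direction under ACBI1, and SMARCA4 was then called (adjusted p = 0.0454). The deviations of same-numbered replicates correlated at 0.02 between the DMSO groups of the lines, at 0.335 between DMSO and ACBI1 in H1975 and at 0.09 in HCC44. No label says that a number marks a shared culture or day, and 2 libraries a group are too few to settle it from the data. On simulated counts at this depth and group size, with most genes equal between the lines, 44.3% of 1.5-fold changes were recovered.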

Other observations

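Further gene lists gave these counts. Of 19 genes of interferons and their receptors, 8 were higher in HCC44 and 5 higher in H1975. SOCS3, a feedback inhibitor of cytokine signalling, had 106 and 88.3 CPM in HCC44 and 19.5 and 17.1 CPM in H1975, while USP18, a feedback inhibitor of the interferon receptor, was 3.35-fold higher in H1975. Of 18 cell cycle regulators, 9 were higher in HCC44 and 5 in H1975. Of 26 tumour suppressors and oncogenes of the RAS, LKB1 and related pathways, 14 were higher in HCC44 and 7 in H1975. Of 10 neuroendocrine genes tested, 4 were higher in HCC44 and 3 in H1975. Of 30 cancer-testis antigens, 25 were too low to test, and of the other 5, 4 were higher in H1975 and 1 in HCC44. Of 9 endothelial and fibroblast markers tested, 6 were higher in HCC44 and 2 in H1975, and of 6 immune cell markers tested, 3 were higher in H1975 and none in HCC44.

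The line difference also varied by chromosome. The median log2 difference was highest on chromosome 13, at 0.66 over 336 genes, of which 35.7% were at least 2-fold higher in HCC44 and 13.4% in H1975. It was lowest on chromosome 22, at -0.61 over 553 genes, of which 8.68% were at least 2-fold higher in HCC44 and 35.1% in H1975. Copy number was not measured in these files, and its part in these values was not tested.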
